A study of Mus musculus with 10 samples.

Results

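The genes described here are 47 genes of the DNA damage response and DNA repair, among the 21887 protein-coding genes that RefSeq annotates on mouse build mm10. All 47 symbols had a match, and Mre11a is written here in its older form. They were chosen by name, by the processes they serve, but with earlier results of these data known. A gene was counted as carrying a peak in a library when the summit of at least 1 deposited peak lay between 5 kb before and 5 kb after its RefSeq span. Because the genes are long, with a median span of 32109 bases against 17169 bases over all genes, their windows were wider than usual. The main counts are therefore set beside the same counts over all genes. Counts by number of libraries and those of the closing section are given without that share.

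The study mapped XBP-1 on chromatin of C57BL/6J mouse liver by chromatin immunoprecipitation and sequencing, in order to find targets of the factor in liver metabolism. The labels give the antibody as Xbp-1s, the usual name of the spliced and active form. Of 10 libraries, 8 were immunoprecipitated and 2 were inputs, that is, liver DNA without immunoprecipitation. There were 2 libraries each of wild-type mice that were fed (Fed) or fasted (Fasted), of wild-type controls for the knockout (WT), and of mice with a liver-specific knockout of Ern1 (Ern1-LKO). Ern1 encodes the endoplasmic reticulum nuclease that splices Xbp1 mRNA into the message of the active factor. The length of the fast, the feeding state of the WT and Ern1-LKO mice, the Cre driver of the deletion, age, sex and whether libraries came from separate animals are not given in the sources used here. Spread between libraries of a group may therefore be technical.

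Cells meet DNA lesions with sensors, kinases that pass on the alarm, p53 and its targets, and a set of repair pathways that each handle one kind of lesion. Nucleotide excision removes bulky adducts, base excision removes small base lesions, mismatch repair corrects replication errors, and double-strand breaks are joined by end joining or copied from the sister chromatid by homologous recombination. In the liver these pathways matter for tolerance of genotoxic metabolites and oxidative stress, and XBP-1 is best known from a different programme, the unfolded protein response of the endoplasmic reticulum.

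The lists differed strongly in length, from 698 peaks in Ern1-LKO replicate 1, 6258 in WT replicate 1 and 19237 in Fasted replicate 2 to between 30327 and 82975 in the other 5 libraries. Kept tags ranged from 4.34M to 17.4M and did not follow peak number: the 698 peaks of Ern1-LKO replicate 1 came from 12M tags. Fed and Fasted libraries were called against 1 input and WT and Ern1-LKO libraries against the other, so groups were compared only within these pairs. All 12 genes of a reference list of unfolded protein response genes, such as the chaperone gene Hspa5, carried a peak in each of the 8 libraries. Peak lists hold no measure of the Ern1 deletion or of liver marker genes, so the labels could not be checked that way. A peak shows enrichment near a gene and gives no expression level.

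Lig3, the gene of the DNA ligase that seals single-strand breaks with its partner Xrcc1, carried the best-ranked site of the 47 genes and the only one shared by all 8 libraries. By mean percentage rank of its strongest peak over the 8 lists it stood at 2.46%, followed by Xpa at 27.5%. Its region, chr11:82781005-82781865 on mm10, lay over the start of the gene. Fold enrichment over local background, the authors' ratio for each peak, was 17.9 and 30.9 in fed liver, 35.5 and 16.8 in fasted liver, 12.2 and 26 in WT, and, in Ern1-LKO, 4.62 and 18.4. Folds depend on each library's depth and input, so here and below they are described and not tested between libraries. The site was weakest in the Ern1-LKO library with the short list, and the Fed and Fasted values overlapped, as did the WT and Ern1-LKO values. Ranked by −log10 q-value within its own list, the Lig3 peak fell in the top 0.24% and 0.25% of the Fed lists, 0.12% and 0.24% of the Fasted lists, and 1.84% and 0.33% of the WT lists. In the Ern1-LKO lists its place was 16.3% and 0.34%. Summits of the 8 libraries spread over 57 bases, with the median summit 336 bases downstream of the start.

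Promoter sequences are shown for Lig3, Xpa, Msh6 and Xrcc4, the members with the best mean percentage rank, and for Brca1 and Ddb1. Brca1 and Ddb1 were chosen after their values were seen, because their median summits lie inside the printed window. They took the places of Mdm2 and Ung, the next by mean rank, whose promoters hold no ACGTG. All are from RefSeq on GRCm38.p6, the assembly of mm10, and run 5′ to 3′ on the gene's own strand from 250 bases before to 50 bases after the start. Capitals mark ACGTG, the core known from XBP-1 sites, CCAAT, the box known from endoplasmic reticulum stress elements, and CCGGAAG, known from ETS factor sites, each on either strand. A match describes the letters and is not evidence of binding. Lig3 (chr11:82780859-82781158, plus strand) holds CACGTG from -21 to -16, upstream of the shared summit, which lies beyond the printed stretch:

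Lig3: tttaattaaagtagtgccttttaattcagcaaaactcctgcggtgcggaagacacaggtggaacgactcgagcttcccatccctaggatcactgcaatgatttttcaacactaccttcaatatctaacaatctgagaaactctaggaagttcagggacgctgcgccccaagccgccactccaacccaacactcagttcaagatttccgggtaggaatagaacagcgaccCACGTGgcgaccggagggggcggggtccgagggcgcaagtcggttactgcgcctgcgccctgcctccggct

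Xrcc4 (chr13:90089559-90089858, minus strand) has 2 CCGGAAG matches, from -140 to -134 and from -12 to -6, and its summit at -214 lies inside the stretch:

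Xrcc4: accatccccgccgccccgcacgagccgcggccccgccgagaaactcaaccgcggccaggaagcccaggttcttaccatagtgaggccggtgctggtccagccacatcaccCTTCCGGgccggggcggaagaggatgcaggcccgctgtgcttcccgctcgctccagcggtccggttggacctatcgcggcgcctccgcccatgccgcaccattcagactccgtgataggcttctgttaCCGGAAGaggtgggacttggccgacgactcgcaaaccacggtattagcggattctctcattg

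Brca1 (chr11:101551906-101552205, minus strand) has CCAAT from -86 to -82 and ACGTG from -17 to -13, just upstream of the median summit at -1:

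Brca1: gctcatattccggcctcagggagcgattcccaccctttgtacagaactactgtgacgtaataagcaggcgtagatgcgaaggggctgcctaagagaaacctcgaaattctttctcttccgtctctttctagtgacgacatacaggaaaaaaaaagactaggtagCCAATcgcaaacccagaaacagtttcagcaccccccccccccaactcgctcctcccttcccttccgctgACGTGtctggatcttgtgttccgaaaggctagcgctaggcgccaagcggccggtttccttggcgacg

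Ddb1 (chr19:10605347-10605646, plus strand) has ACGTG from -21 to -17, with a median summit at -19, although the summits of its 6 libraries spread over 287 bases:

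Ddb1: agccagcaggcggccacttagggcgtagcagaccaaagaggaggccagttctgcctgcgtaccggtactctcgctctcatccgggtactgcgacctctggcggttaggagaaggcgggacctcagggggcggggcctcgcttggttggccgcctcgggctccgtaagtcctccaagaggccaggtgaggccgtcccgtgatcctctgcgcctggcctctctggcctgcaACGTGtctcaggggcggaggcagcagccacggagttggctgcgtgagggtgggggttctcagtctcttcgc

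Msh6 (chr17:87974800-87975099, plus strand) has ACGTG from -83 to -79 and CCAAT from -34 to -30, while its summit lies 427 bases downstream of the start:

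Msh6: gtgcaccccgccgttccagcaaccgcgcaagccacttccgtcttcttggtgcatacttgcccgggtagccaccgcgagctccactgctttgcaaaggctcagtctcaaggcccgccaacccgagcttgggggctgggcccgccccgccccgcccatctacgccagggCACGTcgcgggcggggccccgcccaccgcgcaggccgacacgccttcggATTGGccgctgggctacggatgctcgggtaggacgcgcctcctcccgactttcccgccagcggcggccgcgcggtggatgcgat

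Xpa (chr4:46196262-46196561, minus strand) has CCAAT from -238 to -234 and no other of the marked words, with its summit 266 bases downstream:

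Xpa: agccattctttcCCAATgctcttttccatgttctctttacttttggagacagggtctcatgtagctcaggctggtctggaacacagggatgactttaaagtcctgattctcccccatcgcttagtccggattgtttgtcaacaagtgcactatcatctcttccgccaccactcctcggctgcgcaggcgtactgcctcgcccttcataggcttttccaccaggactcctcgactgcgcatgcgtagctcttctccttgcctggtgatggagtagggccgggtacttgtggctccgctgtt

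Of the 44 promoters that the table holds for 39 members, ACGTG occurred in 15 and CCACG in 18, against 20.9% and 37.4% of 21263 promoters of the same length. CACGTG, which contains ACGTG, occurred in 7 member promoters against 7.84% of promoters, CCAAT in 22 against 38.2%, and CCGGAAG in 10 against 11.6%. The longer word TGACGTGG, which also contains ACGTG, was in 0 member promoters and 0.705% of all, and TGACGTCA, the cyclic AMP response element, was in Brca2 alone and in 2.23% of all. The endoplasmic reticulum stress element, which joins CCAAT and CCACG at a fixed spacing, was in 0 members and 0.141% of all promoters, but in 4 of the 10 reference genes with a start in the table (Creld2, Dnajc3, Hspa5 and Pdia6). The p53 response element was found in 1 member, Cdkn1a, a known p53 target, and in 0.047% of all promoters. Matches were searched on both strands, and a window without a match says only that these letters are not in it.

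**Figure D1:**
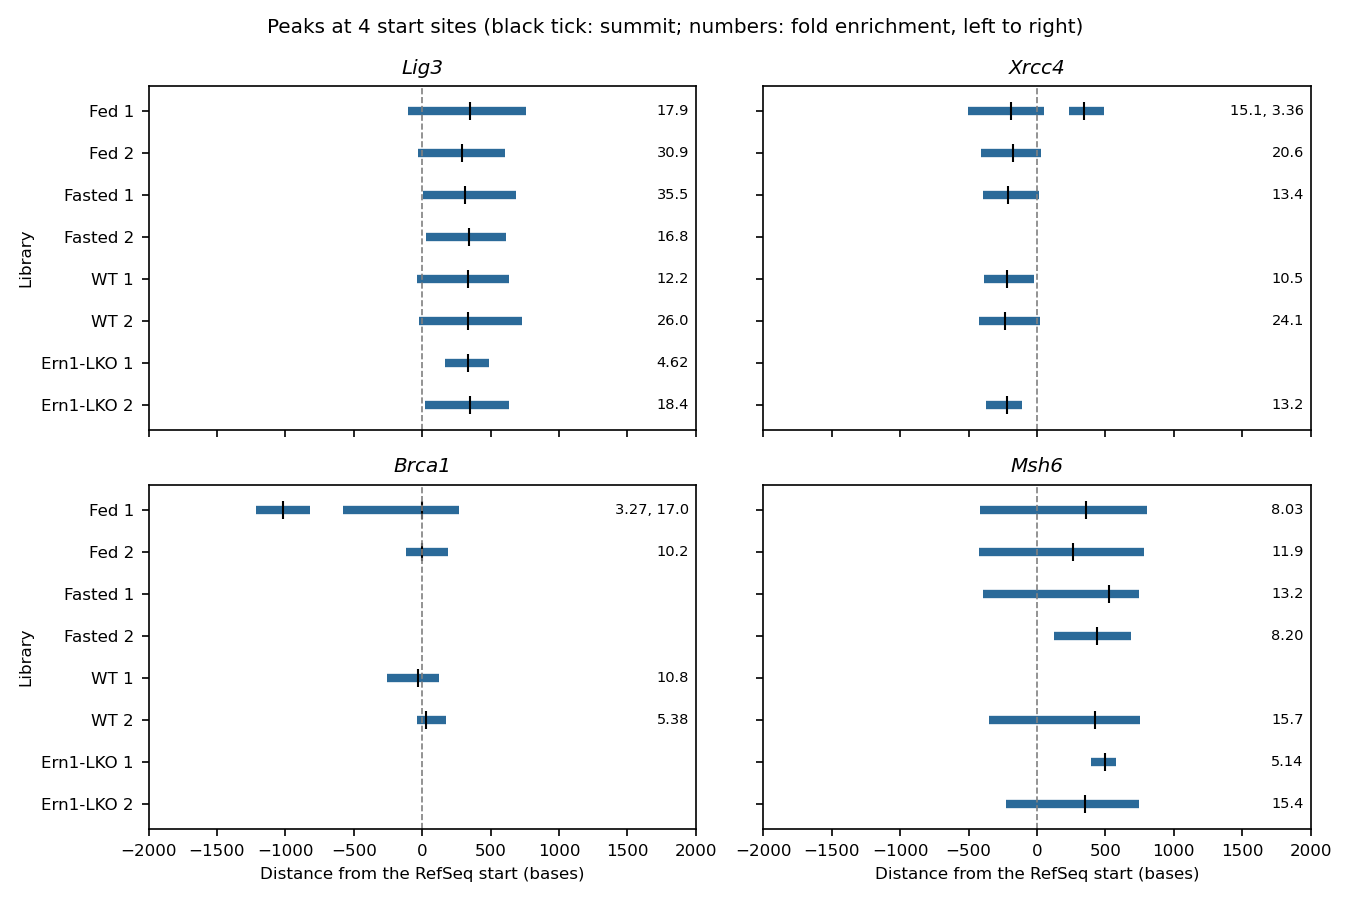
Peaks around the RefSeq start (dashed line, distance in bases, upstream to the left) of Lig3, Xrcc4, Brca1 and Msh6 in each of the 8 libraries. Blue bars are deposited peaks, black ticks are summits and numbers are fold enrichments. Lig3 has a peak in all 8 libraries, and Brca1 has one at its start in both Fed and both WT libraries and in no Fasted or Ern1-LKO library.

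In the Fed libraries, 47 and 44 of the 47 genes carried a peak, beside 76.1% and 71.2% of all genes. The Fasted libraries gave 45 and 24 genes, beside 73.1% and 43.6%. In WT the counts were 12 and 42, beside 19.6% and 65%, and in Ern1-LKO they were 3 and 39, beside 3.58% and 62.4%. Each of the 8 shares lay above that of all genes, and the shortest lists gave the fewest genes. With summits restricted to 1 kb around either gene end, where span length plays no part, the counts became 44, 36, 35, 11, 10, 33, 3 and 28 in the same order. The matching shares over all genes were 63%, 55.3%, 57.9%, 25.8%, 11.1%, 51.4%, 2.51% and 46.8%, so 7 of the 8 shares stayed above those of all genes, while in Fasted replicate 2 the share (23.4%) fell below.

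**Figure D2:**
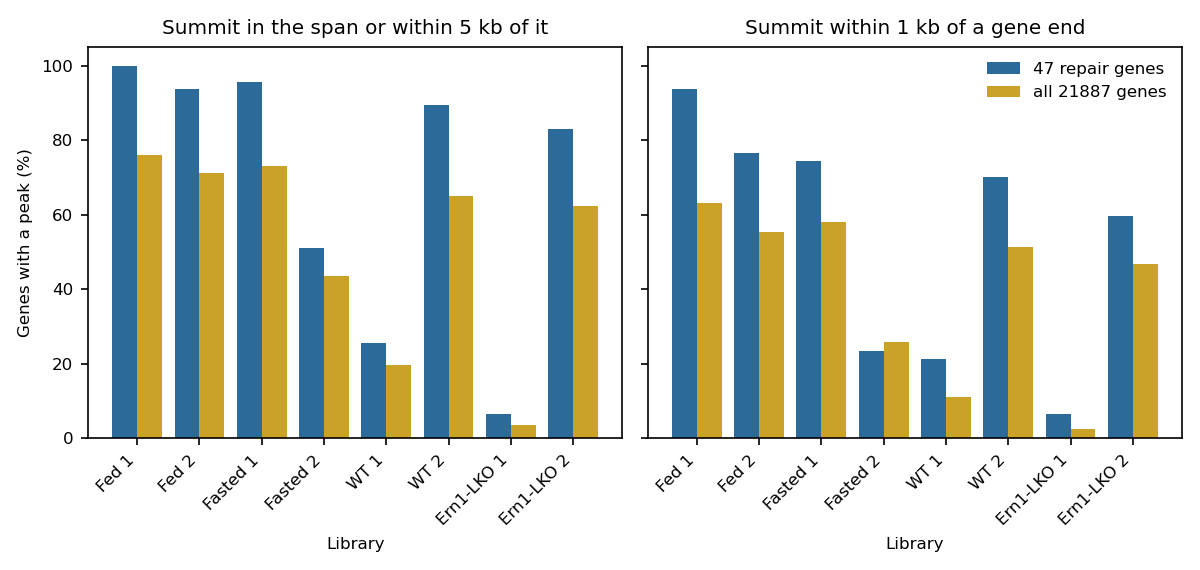
Percentage of the 47 repair genes (blue) and of all 21887 genes (yellow) with a peak in each library, with the summit in the span or within 5 kb (left) and within 1 kb of a gene end (right). The share of repair genes runs from 6.38% in Ern1-LKO replicate 1 to 100% in Fed replicate 1 on the left, and lies above that of all genes in each library except Fasted replicate 2 on the right.

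Counting genes called in each of a group's libraries, Fed had 44 of the 47 (68.8% of all genes), Fasted 23 (43.2%), WT 12 (18.3%) and Ern1-LKO 3 (3.54%). The 3 genes of the last set were Chek1, Msh6 and Lig3. Lig3 alone had a peak in all 8 libraries, 2.13% of the members against 2.64% of all genes. A further 8 genes (Xpa, Msh6, Mdm2, Ung, Fanca, Parp1, Nbn and Cdkn1a) had peaks in 7 libraries, 15 in 6, 16 in 5, 4 in 4, and 1 each in 3 (Palb2), 2 (Chek2) and 1 (Ercc3). No member was without a peak, and shares over all genes were not counted for these numbers of libraries. By the 1 kb limit the group counts were 36, 11, 10 and 3, beside 52.9%, 25.4%, 10.3% and 2.44%, and 1 gene was in all 8 libraries, beside 1.65%. Keeping only peaks with a −log10 q of at least 10 left 31, 16, 7 and 1 genes, beside 46.7%, 29.7%, 8.53% and 0.932%, and again 1 in all 8, beside 0.722%. Among equal numbers of top peaks within each pair of groups the counts were 37, 21, 2 and 1, beside 51.3%, 40.1%, 2.36% and 1.86%, with 1 in all 8, beside 0.864%. In the authors' pooled lists, 1 for each group, they were 47, 44, 33 and 22, beside 77.3%, 69%, 48.6% and 46.4%, and 22 genes had a peak in all 4, beside 41%.

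**Figure D3:**
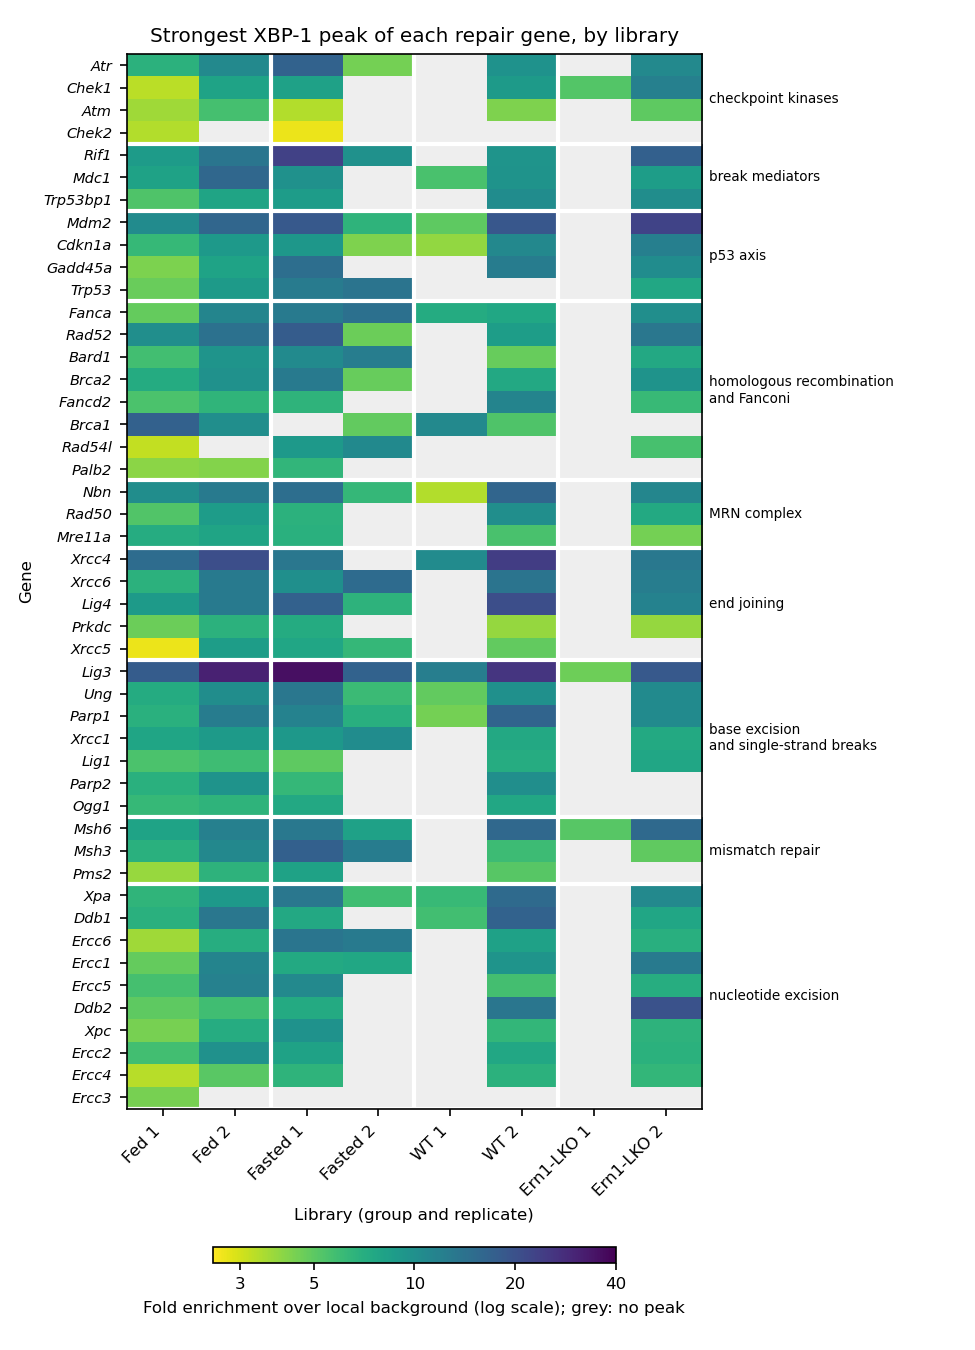
Fold enrichment (colour, log scale) of the strongest peak in the window of each of the 47 genes (rows, grouped by role) in each library (columns), with grey for no peak. Lig3 is the darkest row, with folds up to 35.5, and the columns of WT replicate 1 and Ern1-LKO replicate 1 hold 12 and 3 coloured cells.

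Merging overlapping peaks gave 224 separate sites in the 47 windows. Of these, 114 were called in 1 library only, 80 of them in Fed replicate 1, the longest list. At the other extreme, 52 sites were called in 5 or more libraries and lay in the windows of 37 genes, where 55.8% of all genes had such a site. Among them 49 had peaks in all of the 5 longest lists, which are both Fed libraries, Fasted replicate 1, WT replicate 2 and Ern1-LKO replicate 2. A peak of Fasted replicate 2 was present at 22 of the 52, one of WT replicate 1 at 11 and one of Ern1-LKO replicate 1 at 3. Summits of 1 site differed by a median of 140 bases between libraries, and by 766 bases at most.

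Of the 52 sites of 5 or more libraries, 27 lay within 1 kb of the member's own start. In the 5 longest lists, 65.8% to 78.6% of the members' strongest start peaks lay downstream of the start. Over all genes the share was 72.2% to 77.7%. Among the 27 sites, 21 had their median summit downstream, 59 to 649 bases in, with a median of 245. The other 6 lay upstream, at -584 for Atm, -214 for Xrcc4, -348 for Xrcc6, -289 for Lig1, -298 for Lig4 and -19 for Ddb1. In 5 of these 6 the same summit was downstream of a second gene's start: Npat beside Atm at 208 bases, Tmem167 beside Xrcc4 at 155, Desi1 beside Xrcc6 at 199, Zswim9 beside Lig1 at 184 and Abhd13 beside Lig4 at 261. Another protein-coding gene's start lay within 1 kb of 17 of the 52 sites, including the start sites of Mre11a (Ankrd49) and Atr (1700065D16Rik). A peak list has no strand, so such a peak cannot be given to one gene of the pair.

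Of the 39 members with a known start, 38 and 34 had a summit within 1 kb of it in the Fed libraries (63.9% and 57% of 17492 genes), 33 and 11 in fasted liver (59.2% and 27%), 10 and 32 in WT (12% and 53.4%), and 3 and 28 in Ern1-LKO (2.83% and 48.5%). The strongest start peak of these genes had its median summit 122.5 to 338 bases downstream of the start in the 8 libraries. Over all genes the medians ranged from 20 to 163 bases downstream. For members and all genes they were 132 and 138 in Fed replicate 1, and 134 and 129 in Fed replicate 2. Fasted replicate 1 gave 175 and 151, and Fasted replicate 2 gave 140 and 163. WT replicate 1 gave 122.5, from 10 members, and 20, and WT replicate 2 gave 147.5 and 121. In Ern1-LKO replicate 1 they were 338, from 3 members, and 121, and in replicate 2 they were 193 and 139. In the reference genes of the unfolded protein response the medians lay upstream, from -66.5 to -20, in each of the 8 libraries. The members were also far weaker than that list: median folds at the start were 6.16 and 9.27 against 37.8 and 58.5 in the Fed libraries, and 8.37 against 37.5 in WT replicate 2. All genes had medians of 5.59, 8.33 and 8.32 in those 3 libraries, close to the members. These comparisons are descriptions, with no test.

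**Figure D4:**
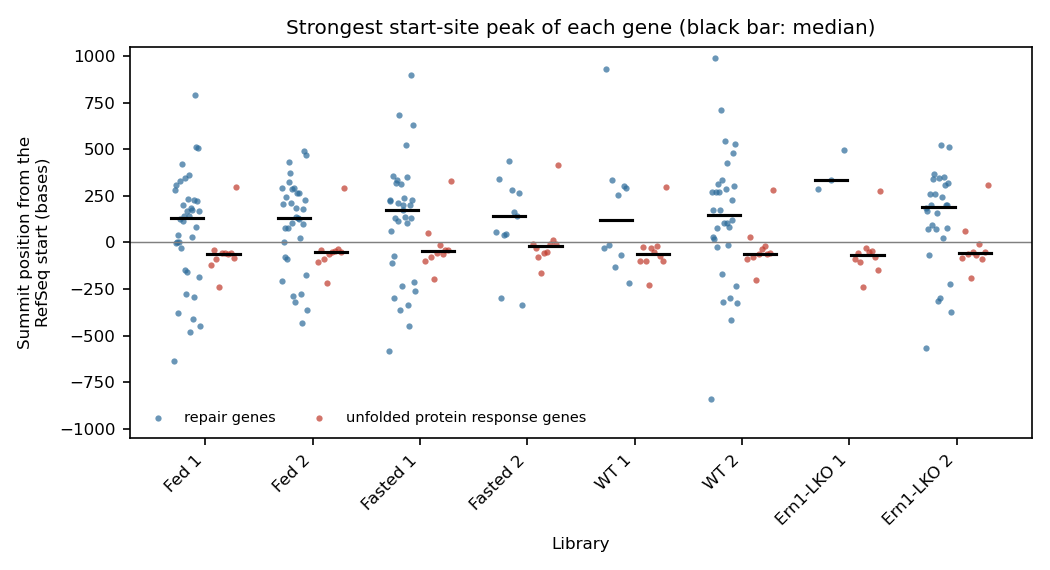
Position of the summit (bases from the RefSeq start, upstream negative) of the strongest peak within 1 kb of a start, for each repair gene (blue) and each of 10 unfolded protein response genes (red) in each library, with black bars for medians. Blue medians lie 122.5 to 338 bases downstream and red medians between -66.5 and -20.

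In Fasted replicate 2 the members' strongest peaks lay farther from the start than in the other libraries. The strongest peak lay within 1 kb of the start in 34 of 39 genes with a start and a peak in Fed replicate 1 and in 28 of 38 in Fasted replicate 1, beside 66.1% and 65.5% of all such genes. In Fasted replicate 2 it did so in 8 of 22, beside 49.2%, a share that was also lower over all genes than in the other 7 libraries. The median distance from the start in that library was 2409 bases downstream for the members and 357 over all genes. The Fasted group thus rests on 2 libraries that differ in where their peaks lie.

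Among the checkpoint kinases, which sense damage and halt the cell cycle, Chek1 was one of 3 members with a peak in Ern1-LKO replicate 1. Its start site had folds of 3.33 and 8.04 in fed liver, 8.22 in Fasted replicate 1, 8.82 in WT replicate 2, and 5.25 and 12 in Ern1-LKO, with no peak in Fasted replicate 2 or WT replicate 1. One library of WT and one of Fasted thus lacked it, while both Ern1-LKO libraries had it. Atr, the kinase of stalled replication forks, had 6.76 and 10.9 in fed liver and 16.8 in Fasted replicate 1, with WT replicate 2 at 6.06 and Ern1-LKO replicate 2 at 8.45 at its start. A second site in the Atr window lay at the start of the neighbour Xrn1, and the Fasted replicate 2 peak of the window (4.46) was there. Atm, the kinase of double-strand breaks, had weak values at the start it shares with Npat: 3.72 and 5.66 in fed liver and 3.45 in Fasted replicate 1, with WT replicate 2 at 4.29 and Ern1-LKO replicate 2 at 4.96. Chek2, the effector of Atm, had peaks in Fed replicate 1 and Fasted replicate 1 only, and its Fasted replicate 1 peak ranked among the weakest of that list, at 98.9%.

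Of the break mediators, which gather at broken ends, Rif1 had the best mean rank. Rif1 limits end resection together with the product of Trp53bp1. Its folds were 8.71 and 13.6 in fed liver and 23.4 and 9.82 in fasted liver, with WT replicate 2 at 9.53 and Ern1-LKO replicate 2 at 17.1. Both libraries without it, WT replicate 1 and Ern1-LKO replicate 1, are the 2 shortest lists. Mdc1, which reads phosphorylated histone H2A.X, had a start site with 8.06 and 6.15 in fed liver, 5.05 in Fasted replicate 1, and 4.31 and 2.68 in WT, with no peak in Fasted replicate 2 or in either Ern1-LKO library. A second site in the Mdc1 window, at the start of Tubb5, did have a peak in Ern1-LKO replicate 2, with a fold of 8.54. Trp53bp1 had a start site with folds of 5.36, 6.01 and 8.61 in the first 3 libraries, with WT replicate 2 at 10.4 and Ern1-LKO replicate 2 at 10.2.

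In the p53 axis, Mdm2, the ligase that marks p53 for destruction, had the best mean rank. Its start region had folds of 10.5 and 15.9 in fed liver, 18.5 and 6.60 in fasted liver, 4.99 and 18.9 in WT, and 22.9 in Ern1-LKO replicate 2. Only Ern1-LKO replicate 1 lacked it, and the Fed and Fasted values overlapped. Cdkn1a, the p53 target that encodes the cell cycle inhibitor p21, had a site with its median summit 1043 bases downstream of the nearest start, with folds of 6.27 and 8.91 in fed liver, 11.4 and 4.25 in fasted liver, 3.92 and 11.0 in WT and 12.1 in Ern1-LKO replicate 2. Gadd45a, a p53 target in growth arrest, had 4.30 and 7.99 in fed liver and 14.6 in Fasted replicate 1, with WT replicate 2 at 12.5 and Ern1-LKO replicate 2 at 10.7.

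Trp53, the gene of p53 itself, had its most shared region inside the gene, 4654 bases from the start at chr11:69584843-69585188. Folds there were 2.97 and 8.81 in fed liver, 12.7 and 10.5 in fasted liver and 7.57 in Ern1-LKO replicate 2. A second internal region, 3491 bases from the start, had 5.01 in Fed replicate 2, 9.98 and 13.8 in fasted liver, and 5.5 in Ern1-LKO replicate 2. At both regions each Fasted value was above each Fed value called. Neither WT library had a peak anywhere in the Trp53 window. Near the 3′ end, a further region was called in both Fed libraries (4.14 and 5.05) and in no other. Closer to the start, a region at 794 bases had a peak of Fed replicate 1 alone (4.73). One at -1258 had 2.87 and 4.27 in fed liver and 2.87 in Fasted replicate 1. The p53 target Cdkn1a also had a site inside the gene, 4846 bases from the nearest start and called in 5 libraries.

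Brca1, whose product directs broken ends to homologous recombination, was the only one of the 47 genes with a site called in both Fed and both WT libraries and in none of the other 4. This combination rests on the count by region, which was chosen after seeing the data. Its share over all genes was not counted, so how unusual it is cannot be judged. The combination also joins libraries called against different inputs, so it is a description and not a comparison. The compact site at the Brca1 start, chr11:101551685-101552530, had folds of 17.0 and 10.2 in fed liver and 10.8 and 5.38 in WT. Summits of the 4 libraries spread over 58 bases. Within their lists these peaks stood at 0.33% and 9.06% in Fed and at 7.65% and 61.1% in WT, so the second WT peak was of middling to low rank. By the window count Brca1 was the 1 member called in both WT libraries and absent from both Ern1-LKO lists, beside 0.896% of all genes. It was not counted as Fed only because Fasted replicate 2 had a weak peak (4.88, at 93.6% of its list) 30701 bases downstream of the start. The site also lies at the start of Nbr1, an autophagy receptor gene, 151 bases upstream of its nearer start, and cannot be assigned to one of the pair. No p-value is given, since an exact permutation test of 2 libraries against 2 cannot go below 0.33.

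The partners of Brca1 in homologous recombination did not show this split. Brca2, which loads the recombinase onto resected ends, had start folds of 7.28 and 9.81 in fed liver and 12.9 and 4.78 in fasted liver, with WT replicate 2 at 7.47 and Ern1-LKO replicate 2 at 9.67. Bard1, the partner of Brca1 in a ubiquitin ligase, had 5.81 and 9.48 in fed liver and 10.6 in Fasted replicate 1, with WT replicate 2 at 4.77 and Ern1-LKO replicate 2 at 7.5 at its start. Palb2, the link between Brca1 and Brca2, had peaks only in both Fed libraries and Fasted replicate 1. Rad52, an annealing factor, had 10.2 and 14.2 in fed liver and 17.8 and 4.67 in fasted liver, with WT replicate 2 at 8.56 and Ern1-LKO replicate 2 at 13.3.

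Rad54l, a motor protein gene of recombination, went the other way from Brca1. A region inside the gene, 6713 bases from the start, was called in both Fasted libraries (8.94 and 8.36) and in no other. A second region 9973 bases from the start had 6.21 and 10.8 in fasted liver and 5.58 in Ern1-LKO replicate 2. Fed replicate 1 had 1 weak peak upstream of the gene, at 77.7% of its list, so Rad54l was not among the genes with Fasted peaks alone. In the Fanconi pathway, which unhooks crosslinks, the Fanca site beyond the 3′ side had 6.32 and 11.3 in fed liver and 12.8 and 14.3 in fasted liver, with WT replicate 2 at 7.68 and Ern1-LKO replicate 2 at 10.1. The Fancd2 site lay 96 bases from an end of Fancd2, whose start is not known here, and at the start of its neighbour Emc3. Its folds were 5.51 to 11.4 in the 5 longest lists.

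The MRN complex, which tethers broken ends, was covered in all 3 subunits by the 5 longest lists. Nbn had the strongest and widest-shared site, with 10.2 and 12.9 in fed liver, 14.7 and 6.33 in fasted liver, 3.44 and 16.3 in WT and 11.3 in Ern1-LKO replicate 2. Rad50 and Mre11a had no peak in Fasted replicate 2, WT replicate 1 or Ern1-LKO replicate 1, and their site folds ranged from 5.32 to 10.2 and from 4.46 to 7.95.

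In end joining, Xrcc4 stood out by rank. Its product holds ligase IV, encoded by Lig4, at the ends. The Xrcc4 start site, chr13:90089558-90090111, had folds of 15.1 and 20.6 in fed liver, 13.4 in Fasted replicate 1, 10.5 and 24.1 in WT and 13.2 in Ern1-LKO replicate 2. Fasted replicate 2 and Ern1-LKO replicate 1 lacked it, and both WT libraries had it. Within lists it stood at 0.37% and 0.56% in Fed, 7.34% in Fasted replicate 1, 5.56% and 0.74% in WT and 7.63% in Ern1-LKO replicate 2. The site is shared with Tmem167. Lig4 had 8.78 and 12.7 in fed liver and 17.0 and 6.70 in fasted liver, with WT replicate 2 at 20.5 and Ern1-LKO replicate 2 at 11.7 at a site shared with Abhd13. For the Ku subunits, the Xrcc6 start region had 6.71 and 12.9 in fed liver and 10.1 and 8.64 in fasted liver, with WT replicate 2 at 13.7 and Ern1-LKO replicate 2 at 12.4, whereas Xrcc5 had its most shared site 52729 bases downstream of the start, with folds of 4.87 to 8.59 in 4 libraries. Prkdc, the kinase that Ku recruits, had folds between 3.55 and 7.26 at its 2 most shared sites.

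Beside Lig3, the base excision and single-strand break genes had shared start sites at Ung and Parp1. Ung, which removes uracil from DNA, had 7.30 and 10.3 in fed liver, 13.3 and 6.02 in fasted liver, 4.88 and 10 in WT and 10.6 in Ern1-LKO replicate 2. Parp1, the sensor of strand breaks, had 6.86 and 12.5 in fed liver, 11.8 and 5.12 in fasted liver, 4.46 and 16.4 in WT and 10.7 in Ern1-LKO replicate 2. Both had a peak in 7 libraries and lacked one in Ern1-LKO replicate 1, and in both the groups of each pair overlapped where 2 libraries had values. Xrcc1, the scaffold of Lig3, had 7.41 to 9.12 at its start in the 5 longest lists, and Lig1, the replicative ligase, 4.19 to 7.15. Parp2 had 6.87 and 9.65 in fed liver, 6.32 in Fasted replicate 1 and 10.2 in WT replicate 2, and Ogg1, the oxidised guanine glycosylase, had a region called in both Fed libraries alone (4.70 and 6.54) besides its other peaks.

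Mismatch repair was led by Msh6, which recognises base mismatches. Its start site, chr17:87974626-87975854, had folds of 8.03 and 11.9 in fed liver, 13.2 and 8.20 in fasted liver, 15.7 in WT replicate 2, and 5.14 and 15.4 in Ern1-LKO. Only WT replicate 1 lacked it, although that list is longer than the list of Ern1-LKO replicate 1, which held it at 72.1% of its ranks. Msh3, which recognises larger loops, had 6.86 and 11.0 in fed liver and 17.2 and 5.56 in fasted liver, with WT replicate 2 at 5.95 and Ern1-LKO replicate 2 at 4.91. Pms2, an endonuclease of mismatch repair, had 3.85 to 8.06 in 4 libraries at a site shared with Aimp2.

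Nucleotide excision genes were led by Xpa, the scaffold at the lesion, whose start site had 6.52 and 9.06 in fed liver, 13.3 and 5.82 in fasted liver, 6.20 and 15.3 in WT and 10.9 in Ern1-LKO replicate 2. The damage sensors Ddb1 and Ddb2 form one complex. Ddb1 had 6.86 and 13.4 in fed liver, 7.54 in Fasted replicate 1, 5.78 and 16.7 in WT and 7.75 in Ern1-LKO replicate 2 at its start. The Ddb2 site had 4.96 and 5.88 in fed liver and 7.31 in Fasted replicate 1. Called against the other input, it had 13.5 in WT replicate 2, with Ern1-LKO replicate 2 at 19.9. Xpc, the global genome sensor, had 4.40 and 7.22 in fed liver and 9.70 in Fasted replicate 1, with WT replicate 2 at 6.41 and Ern1-LKO replicate 2 at 6.68. This site lay 21 bases from an end of Xpc and 168 bases upstream of the start of Lsm3.

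Ercc1, the partner of the nuclease encoded by Ercc4, had its most shared site upstream, at -2837, with 6.99 and 11.4 in fed liver and 6.20 and 7.67 in fasted liver, with WT replicate 2 at 7.28 and Ern1-LKO replicate 2 at 4.75. At its own start, 101 bases downstream, a weak peak was called in both Fed libraries alone (4.49 and 4.11). Other excision genes had start sites called in the 5 longest lists alone. Folds were 3.37 to 6.75 at Ercc4, 4.30 to 7.63 at the helicase gene Ercc2 and 5.65 to 11.8 at the nuclease gene Ercc5. The start site of Ercc6, which couples repair to transcription, had 3.70 to 8.18. The most shared Ercc6 site lay 63663 bases downstream of the start. It had folds of 4.14 to 13.7 in 6 libraries, among them Fasted replicate 2 at 12.8. Ercc3, the second helicase of the repair factor TFIIH, had the least support of all members, with 4 peaks in Fed replicate 1 and none in the other 7 libraries.

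Fed and Fasted livers were compared by the genes with a peak in both libraries of one group and neither of the other. By the window count, 0 of the 47 genes were Fed only and 0 Fasted only, beside 1.2% and 0.0731% of all genes. With summits within 1 kb of a gene end, 3 were Fed only (Brca1, Trp53 and Ogg1), beside 1.34%, and 0 were Fasted only, beside 0.119%. Counted by region, 7 genes held at least 1 region called in both Fed libraries and overlapped by no Fasted peak (Brca1, Trp53, Ogg1, Ercc1, Ercc4, Ercc6 and Fanca), beside 9.34% of all genes, and 1 held a region of the reverse kind (Rad54l), beside 1.62%. Folds of these Fed regions were 3.19 to 6.54, apart from the Brca1 site with 17.0 and 10.2. At a −log10 q of at least 10, Brca1 and Lig1 were Fed only, beside 0.658%, and Rad54l was Fasted only, beside 1.04%. In the pooled lists 3 genes were Fed only (Mre11a, Chek2 and Ercc3), beside 9.01%, and 0 were Fasted only, beside 0.768%. The single libraries do not bear out this split: Mre11a and Chek2 had a peak in Fasted replicate 1 (6.87 and 2.71). Chek2 and Ercc3 had none in Fed replicate 2.

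Unequal list lengths bear on this comparison, so the 19237 strongest peaks of each Fed and Fasted library were also compared. Then 5 genes were Fed only (Atm, Mre11a, Lig1, Parp2 and Ercc2), beside 1.74% of all genes, and 0 were Fasted only, beside 0.937%. All 5 had a peak in the full list of Fasted replicate 1, below the limit at 35.6% of that list, with Parp2 at 38.1% just outside it and Atm at 91.1% far outside. In the Fed lists, whose limits were 23.2% and 40.6%, Atm stood at 18.2% and 39.8%, the latter just inside. None of the 5 had a peak in Fasted replicate 2. Without Fasted replicate 1, the number of Fed-only genes by the window count was 21 (44.7% of the members, beside 26.5% of all genes), so the count of 0 rests on that library.

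For WT against Ern1-LKO, the window count gave Brca1 alone as WT only and 0 genes as Ern1-LKO only, beside 0% of all genes. Within 1 kb of a gene end, Brca1 and Mdc1 were WT only, beside 0.704%, and 0 were Ern1-LKO only, beside 0.0183%. The same 2 genes held a region called in both WT libraries and overlapped by no Ern1-LKO peak, beside 1.06%. The Mdc1 region stood at 33.1% of the WT replicate 1 list and at 98.5% of the WT replicate 2 list, near its end. With equal numbers of top peaks, 698 in each library, Xrcc4 was the 1 WT-only gene, beside 0.923%, although Ern1-LKO replicate 2 had it at 7.63% of its full list. Lig3 was in the top 698 of all 4 libraries, and 0 genes were Ern1-LKO only, beside 0.635%. At a −log10 q of at least 10, 0 genes were WT only, beside 0.672%. The window count rests on Ern1-LKO replicate 2: without it 11 genes were WT only (23.4% of the members, beside 15.5% of all genes), and without WT replicate 1 there were 5 (10.6%, beside 6.14%).

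The pooled lists of this pair are nearly equal in length, with 13841 peaks for WT and 14428 for Ern1-LKO. Here 11 genes were WT only, beside 7.51% of all genes, and 0 were Ern1-LKO only, beside 5.3%. They were Ddb1, Brca1, Fancd2, Parp2, Xpc, Rad50, Ercc6, Xrcc1, Msh3, Mre11a and Bard1, with pooled folds from 2.88 (Msh3) to 9.31 (Ddb1). These values do not separate the groups library by library: 9 of the 11 had a peak in Ern1-LKO replicate 2, and 0 had one in Ern1-LKO replicate 1, which gave 12M of the 16.28M pooled tags. Brca1 and Parp2 were the 2 without a peak in either Ern1-LKO library. Within the pooled WT list Ddb1 stood at 3.59% and Brca1 at 14.6%, while Mre11a and Bard1 stood at 91.4% and 91.6%, near the end of the list. With 1 pooled list a group there is no replicate check.

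Another list held 94 other genes of repair and damage signalling from the same pathways. Of these, the Fed pair shared 89 (68.8% of all genes), the Fasted pair 53 (43.2%) and the WT pair 24 (18.3%). Aptx, which removes stalled ligation products, had a peak in all 8 libraries. Its shared site lay at the start of the neighbour Dnaja1, a chaperone gene. Fen1, the flap endonuclease gene, was WT only by the window count: its site, at the start shared with Tmem258, had 14.9 in Fed replicate 1, 5.56 in Fasted replicate 1 and 15.7 and 6.12 in WT, and no peak in the other 4 libraries. Fanci, the partner of Fancd2, was Fed only by the window count, but its strongest peaks in the Fed libraries lay at different places. That of Fed replicate 1 (4.18) was upstream of the gene, where WT replicate 2 had 6.87. That of Fed replicate 2 (3.86) was 151 bases downstream of the start, where Fed replicate 1 had 2.74. Fen1 and Fanci were each the only gene of the 94 with their split. Over all genes, 0.896% were WT only and 1.2% Fed only.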

How the data were processed

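Peaks were analysed from lists that the authors deposited, 1 for each of 8 immunoprecipitated libraries and 4 for pooled groups, 12 in all. The submitters' processing notes list MACS2 2.2.1, Bowtie2 2.2.5, FastQC 0.11.3 and bcl2fastq, with mm10 as the build. The file headers name MACS 2.1.1.20160309, a cutoff on q of 0.05, single-end reads and at most 1 tag at a position. By those headers, deposited with the lists by the authors, each peak has a pileup signal at its summit, which was not used here, and a fold enrichment, the ratio of pileup to local background. The deposited −log10 p-value was not used, and the deposited −log10 q-value ranked peaks within a list, the percentage being the rank over the number of peaks.

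Gene spans came from RefSeq on GRCm38.p6, and starts and strands from its promoter table, which held 39 of the 47 genes. Peaks of different libraries were merged into one site or region where they overlapped by at least 1 bp. Alternatives were a 1 kb limit around gene ends, a −log10 q of at least 10, overlap of replicate peaks, equal numbers of top peaks, the pooled lists, leaving out each library and a count by region. Members were named by rule (all 8 libraries, a split between groups, the 10 best mean percentiles, and 12 fixed names), and the rest were accounted for by role; genes of the pooled splits were named after their values were seen. The members, the lists and these rules were chosen with earlier results of these data known. Peak assignment was tested on simulated data, where 200 of 200 planted peaks were assigned to the right gene. Python 3.11.15, pandas 2.3.3 and numpy 2.4.6 were used. No test was run: the results are counts of called peaks, and an exact permutation over 2 libraries against 2 cannot go below 0.33. Some genes of the other pathway list are not reported here.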

Additional observations from a re-analysis of the deposited data

How the results depend on the processing

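Of 81 alternative values, 48 kept the count within 1.5 times and 33 did not. Members in both Fasted libraries (23) numbered 11 near gene ends and 44 in the pooled list, and 24 to 45 with a library left out. For both WT libraries (12) the counts were 7 at −log10 q of at least 10, 2 among equal top peaks, 33 pooled and 12 to 42 with a library left out. For both Ern1-LKO libraries (3) they were 1, 1, 22 and 3 to 39. Genes in all 8 libraries (1) numbered 22 over the 4 pooled lists, and 1 to 8 with a library left out, the 8 being without Ern1-LKO replicate 1. Fed-only genes (0) numbered 3 near gene ends, 2 at the stricter q (Brca1 and Lig1), 5 among top peaks, 3 pooled, 7 by region and 0 to 21 with a library left out. Fasted-only genes (0) numbered 1 at the stricter q and 1 by region (Rad54l in both), and 0 to 1. WT-only genes (1) numbered 2 near gene ends, 0 at the stricter q, 11 pooled, 2 by region and 1 to 11, and Ern1-LKO-only genes (0) numbered 0 to 2. The count by region was chosen after seeing the data.

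No paired analysis was possible because the labels give no pairing between libraries of different groups, and the counts come from no test. The cause of these shifts was not tested. The lists hold called peaks only, so a missing peak is not a measured absence of binding, and enrichment too weak to be called is not visible at this depth. WT replicate 1 and Ern1-LKO replicate 1, with the shortest lists, set the counts for their groups, and Fasted replicate 1 sets the Fed-only count.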
